A study of Mus musculus with 4 samples.

Results

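Wild type mouse CD4+ T cells cultured toward the T helper 1 (Th1) state were compared with wild type cells cultured toward the T helper 2 (Th2) state. The comparison took 2 of the 4 arrays of the series, 1 for each culture. Their labels differ, STAT4-wild type for the Th1 culture and STAT6-wild type for the Th2 culture, and both are called wild type here. It covered the 45037 of 45101 probe sets that are not the platform's own controls, which gave 18193 genes. Where several probe sets measured a gene, the one brightest on average across the 4 arrays stood for it. All values are log2 expression values made by the authors with RMA, so a difference of 1 is 2-fold. In its standard form RMA corrects background, brings the arrays to a common distribution and combines the probes of each set.

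The cells came from C57BL/6J mice. Naive CD4+CD44-CD62L+ T cells of spleen and lymph nodes were purified by flow cytometry and cultured for 7 days in all. For the first 3 days they received antibodies against CD3 and CD28, with IL-12 at 20 ng/ml and an antibody against IL-4 for Th1, or IL-4 at 10 ng/ml and an antibody against interferon gamma for Th2. For the other 4 days they received IL-2 at 50 U/ml with IL-12 or IL-4 at 10 ng/ml. They were then stimulated again for 2 h through CD3 and CD28 with IL-12 at 20 ng/ml or IL-4 at 10 ng/ml, so every level below is that of restimulated cells. A second pair of arrays used the same cultures of cells labelled STAT4KO, from the line C57BL6-STAT4<tm1> (Th1), and STAT6KO, from the line B6.129S2©-STAT6<tm1Gru>/J (Th2). The labels do not give the age or sex of the mice, nor whether the wild type cultures shared mice or were handled together. Culture condition, source and handling therefore cannot be told apart. With 1 array a culture there is no replicate spread, and every difference describes these arrays, with no test.

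Th1 and Th2 cells are the helper T cell types that arm macrophages against microbes inside cells and organise responses to worms and allergens. IL-12 acts through STAT4 and the transcription factor T-bet (Tbx21) to favour interferon gamma. IL-4 acts through STAT6 and GATA3 to favour IL-4, IL-5 and IL-13.

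A gene was called at a difference of 2-fold or more, provided that its higher value was no less than 5.82, the median over all probe sets and arrays, here named the level minimum. Of 12111 genes at the minimum, 4058 were called, which is 33.5%. The calls were uneven, with 986 genes higher in Th1 (8.14%) and 3072 higher in Th2 (25.4%). The share of calls higher in Th1 was 24.3% as deposited, 40.1% with each array centred on its median, 44.9% after quantile normalization, 39.3% after a loess correction and 8.9% with the arrays centred on their bacterial hybridization controls. The median difference of genes at the minimum was -0.37 as deposited, and -0.10, 0.00, -0.07 and -0.79 under those scalings. A list median is therefore also given relative to the median of all genes, with its range over the 5 scalings. Both arrays had a median of 5.77, while the 75th percentile was 7.53 in Th1 and 8.10 in Th2. The deposited arrays thus did not share a common distribution. The actin control probe sets at the 3′ end exceeded those at the 5′ end by 0.32 in Th1 and 0.85 in Th2, and those of the transferrin receptor control by 2.27 and 3.94. The array labelled STAT6KO had the widest actin and Gapdh gaps, 2.08 and 0.77, against 0.66 and 0.17 on the array labelled STAT4KO. The Gapdh gap was -0.16 in Th1 and -0.001 in Th2. The transferrin receptor gap was 4.02 in STAT6KO and 3.48 in STAT4KO, so for it wild type Th1 was the lowest of the 4 arrays. These gaps are used as an indirect sign of RNA integrity, and their part in the differences was not tested.

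**Figure D1:**
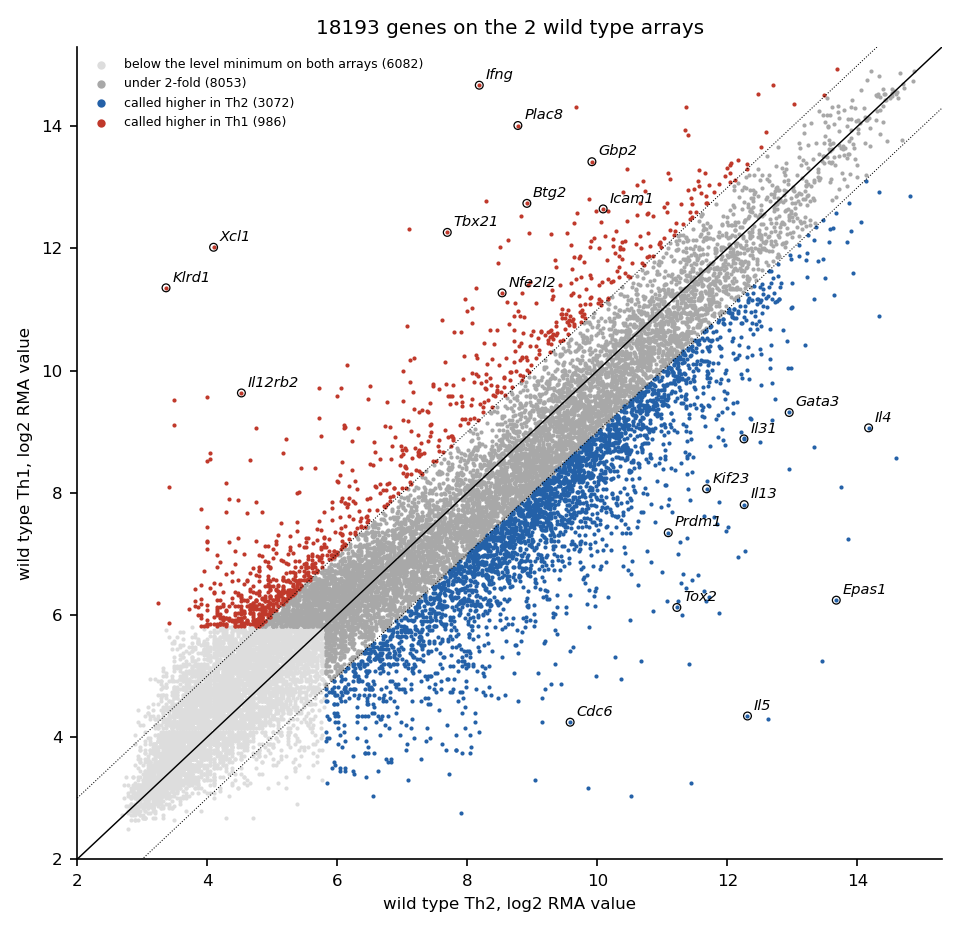
Level of each gene on the wild type Th2 array (x axis) and the wild type Th1 array (y axis), as log2 RMA values. Red and blue points are the 986 and 3072 genes called higher in Th1 and in Th2, grey points are not called, the solid line marks equal levels and the dotted lines 2-fold. Ifng and Xcl1 lie far above the line and Il5, Epas1 and Cdc6 far below it.

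Large differences were also more frequent on the Th2 side. At least 4-fold, 197 genes were higher in Th1 and 733 in Th2. At least 16-fold, the counts were 17 and 69. The split depended on the level of the brighter array. Genes were divided into 4 equal bins by that level. In the lowest bin, from 5.82 to 6.95, 13.81% of genes were called higher in Th1 and 9.37% higher in Th2. In the third bin, from 8.63 to 10.19, the shares were 4.59% and 35.86%. At the other end of the scale, 3001 genes (24.8%) differed by under 1.25-fold. The 10 genes just inside the limit differed by 1.0 to 1.005 on the Th1 side and by -1.001 to -1.003 on the Th2 side. The 10 just outside differed by 0.99 to 0.999 and by -0.998 to -1.0.

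The labelled cell type was checked with markers of CD4+ T cells. All 8 measured markers reached the level minimum on both arrays, and their summed linear value was 54419.7 in Th1 and 52177.8 in Th2. Of the 8, 3 (37.5%) were called higher in Th1, Cd5, Cd3e and Cd4, against 8.14% of all genes, and none higher in Th2. Over the scalings the counts were 0 to 3 and 0 to 1. Of 7 measured CD8+ T or natural killer cell markers, 4 reached the minimum in Th1 and 3 in Th2, with sums of 1011.4 and 622.1. Of these markers, 2 were called higher in Th1, Eomes and Gzmk (granzyme K), the latter at 8.51 in Th1 and 4.00 in Th2. The 1 called higher in Th2 was Cd8b1, a chain of CD8, at 7.41 in Th1 and 8.54 in Th2. Cd8a was 6.16 and 6.14. Ncr1, Klra1 and Klra8, which define natural killer cells, were below the minimum on both. Of 9 myeloid markers, 5 reached it in Th1 and 6 in Th2, with sums of 626.8 and 929.9. The myeloid markers called higher in Th2 were Adgre1 (F4/80), which was 5.0 in Th1 and 8.26 in Th2, and Itgax (CD11c), at 5.57 and 6.76. Lyz2 (lysozyme) was the other way, at 6.28 and 4.88. Among 6 B cell markers, none reached the minimum in Th1 and 2 did in Th2, with sums of 231.4 and 230.4. Of 5 mast cell or basophil markers, 2 reached it in Th1 and 1 in Th2 (sums of 302.9 and 463.7), with Kit at 6.72 and 3.95 and Cpa3 at 6.96 and 8.64. Of neutrophil, erythroid or platelet, and gamma delta T cell markers, 1 each reached it in Th1, and 0, 1 and 0 in Th2. The part of other cells in the results was not tested.

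Cytokine genes included the widest contrasts between the cultures, such as Ifng and Il5. Of 35 cytokine genes at the minimum, 8 were called higher in Th1 and 12 higher in Th2 (5 to 10 and 10 to 14 over the scalings), and 15 were not called. The list median was -0.32, close to that of all genes (0.05 relative to it, -0.26 to 0.14 over the scalings). Fewer producing cells and less RNA per cell cannot be told apart in these bulk samples.

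On the Th1 side, Ifng, which encodes interferon gamma, was 14.67 in Th1 and 8.18 in Th2. The arrays labelled STAT4KO and STAT6KO, at 10.54 and 10.20, lay between the wild types. The TNF family members Lta (lymphotoxin alpha), Tnf and Ltb (lymphotoxin beta) were 12.53, 14.31 and 13.86 in Th1 against 8.83, 11.36 and 11.39 in Th2. Lta thus differed 13.1-fold, Tnf by 2.95 and Ltb by 2.47 on the log2 scale. The T cell growth factor gene Il2 was 14.53 in Th1 and 12.46 in Th2, so restimulated Th1 cells had the higher level. Smaller calls toward Th1 concerned Il34, Csf3 and Clcf1, with differences of 1.23, 1.08 and 1.01. Csf3 lay near the level minimum, at 5.87 in Th1 and 4.80 in Th2.

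On the Th2 side, the type 2 cytokine cluster was high and its members had different levels in Th1 cells. Il5, the growth factor of eosinophils, was 4.34 in Th1 and 12.31 in Th2, and so below the level minimum on the Th1 array. Il4 was 9.06 in Th1 and 14.17 in Th2, and Il13 was 7.80 and 12.26. Il4 and Il13 were thus above the minimum in Th1 as well as in Th2. The arrays of the STAT-deficient cultures separated these neighbours. Il4 was 12.07 in STAT4KO and 13.22 in STAT6KO, and Il13 was 10.65 and 12.08, each above the wild type Th1 value. Il5 was 4.99 and 5.95, near or below the minimum in both. Il31, an itch-inducing cytokine, followed Il4 and Il13, at 8.88 in Th1, 12.25 in Th2, 9.75 in STAT4KO and 11.39 in STAT6KO.

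Cytokines outside the type 2 cluster were also called higher in Th2. Il1a, an alarm cytokine of the IL-1 family, was 4.87 in Th1 and 9.29 in Th2, a 21.4-fold difference. Il10, which restrains immune responses, was high in both wild types, 12.74 in Th1 and 13.87 in Th2, while STAT4KO had 5.94 and STAT6KO 6.61. Ebi3, a subunit of IL-27 and IL-35, was 8.64 and 10.49. Il17a, Tgfb3 and Osm had smaller differences of -1.67, -1.29 and -1.17. The Th2 values of Il17a and Tgfb3, 7.41 and 6.64, were modest on the array's scale. Il6 and Il24 were at least 16-fold higher in Th2 as well, with Il6 at 4.29 and 12.63 and Il24 at 8.58 and 14.60.

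Several cytokines of activated helper T cells did not separate the wild types. Csf2, which encodes GM-CSF, was 13.31 in Th1 and 12.90 in Th2. Il3 was 13.71 and 13.93, and Lif was 12.54 and 12.53. Il21, the helper cytokine for B cells, was 12.30 and 11.62. These 4 genes differed by under 2-fold. Il21 was much lower on the STAT-deficient arrays, at 4.67 in STAT4KO and 5.75 in STAT6KO.

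To show the regulatory sequence beside these levels, the 250 bases before the RefSeq start site were taken for Ifng, Il12rb2 (the inducible IL-12 receptor chain), Il4 and Il13. The table of promoters from RefSeq, assembly GRCm38.p6, held 32851 windows and covered 14453 measured genes. Each window ran from 250 bases before to 50 after the start site. Both strands were searched for the STAT palindrome with 3 bases between its arms (TTCNNNGAA), the form with 4 bases between (TTCNNNNGAA), which STAT6 is known to favour, a T-box element (TCACACCT) and a GATA element (AGATAA). Capitals mark the matches, and the genome positions are those of the printed stretch. Ifng lies at chr10:118440796-118441045 (plus strand), Il12rb2 at chr6:67376189-67376438 (minus strand), Il4 (the start site farther upstream of 2) at chr11:53618666-53618915 (minus strand) and Il13 at chr11:53634703-53634952 (minus strand).
Ifng: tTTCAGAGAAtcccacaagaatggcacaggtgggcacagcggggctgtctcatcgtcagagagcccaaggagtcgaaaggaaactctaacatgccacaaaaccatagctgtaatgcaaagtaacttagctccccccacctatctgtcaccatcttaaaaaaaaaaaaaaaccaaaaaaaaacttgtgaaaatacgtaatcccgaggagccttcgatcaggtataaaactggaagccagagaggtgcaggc
Il12rb2: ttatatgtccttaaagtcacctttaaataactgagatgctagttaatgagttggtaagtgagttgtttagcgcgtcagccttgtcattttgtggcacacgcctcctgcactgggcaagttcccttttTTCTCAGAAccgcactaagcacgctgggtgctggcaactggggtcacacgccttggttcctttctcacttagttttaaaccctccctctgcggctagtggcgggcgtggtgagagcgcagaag
Il4: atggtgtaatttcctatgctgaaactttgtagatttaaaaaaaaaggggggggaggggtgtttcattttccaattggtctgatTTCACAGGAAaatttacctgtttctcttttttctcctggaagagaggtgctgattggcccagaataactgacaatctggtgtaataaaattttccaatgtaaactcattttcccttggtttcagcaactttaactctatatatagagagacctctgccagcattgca
Il13: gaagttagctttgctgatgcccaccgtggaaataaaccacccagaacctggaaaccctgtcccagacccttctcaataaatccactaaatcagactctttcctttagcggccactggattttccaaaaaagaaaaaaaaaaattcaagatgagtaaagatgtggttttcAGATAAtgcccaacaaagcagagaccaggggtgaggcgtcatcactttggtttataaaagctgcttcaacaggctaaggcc
The Ifng and Il12rb2 stretches hold the palindrome with 3 bases between, with its first base at -249 and -123 from the start site. The Il4 stretch holds the form with 4 bases between at -167, and the Il13 stretch a GATA element at -81. The 250-base stretches of Il5, Tbx21, Xcl1 and Gata3, and that of the other Il4 start site, held none of these motifs in full. The stretch of an Irf1 start site, not shown, held the palindrome with 3 bases between at -90, and Irf1 was level between the cultures. The stretches shown are thus a choice among those with a match. The shares that follow cover whole windows. TTCNNNGAA was in 25.8% of the 31 promoters of the Th1 genes listed, 3.7% of the 27 promoters of the Th2 genes listed and 8.3% of all promoters. TTCNNNNGAA was in 16.1%, 11.1% and 6.95%. AGATAA was in 0.0%, 11.1% and 11.2%, and TCACACCT in 6.45%, 3.7% and 1.28%. Over the called genes as a whole the shares were closer together, with TTCNNNGAA in 7.98% of promoters of genes higher in Th1 and 6.51% of those higher in Th2. Its share among all genes at the level minimum was 6.9%. A match describes these letters and is no evidence of binding.

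Of 30 cytokine receptor genes at the minimum, 5 were called higher in Th1 and 12 higher in Th2 (3 to 6 and 6 to 13 over the scalings). The IL-12 receptor was divided between the cultures. Its inducible chain gene Il12rb2 was 9.63 in Th1 and 4.52 in Th2, while the shared chain gene Il12rb1 was 7.77 in Th1 and 10.98 in Th2. The interferon gamma receptor was divided likewise. Ifngr1, the ligand-binding chain, was 11.07 in Th1 and 9.73 in Th2, and Ifngr2, the signalling chain that Th1 cells are known to lose, was 6.12 and 8.93. On the STAT-deficient arrays Ifngr2 was 8.10 in STAT4KO and 6.18 in STAT6KO, the other way round. Both chains of the IL-18 receptor were higher in Th1, with Il18r1 at 12.78 against 8.28 and Il18rap at 11.26 against 8.85.

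The receptors for IL-1 lay on the Th2 side. The decoy receptor gene Il1r2 was 9.19 in Th1 and 12.68 in Th2, and the signalling receptor gene Il1r1 was 6.14 and 8.91. Il17rb, a receptor chain for IL-25, was 4.34 and 6.62. Among the receptors of cytokines added to the cultures, Il4ra was 10.76 in Th1 and 11.95 in Th2 and Il2ra, the high-affinity IL-2 receptor chain, was 12.21 and 13.24. Both passed the 2-fold limit narrowly. Crlf2, the receptor chain for TSLP, Tgfbr1, Tgfbr3, Il3ra and Il27ra completed the Th2 side with differences from -1.17 to -1.57. Il6st, which encodes gp130, was the remaining receptor gene called higher in Th1, at 11.77 against 10.68. The shared chain gene Il2rb and Il7r, Il21r, Ifnar1 and Ifnar2 differed by under 2-fold.

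**Figure D2:**
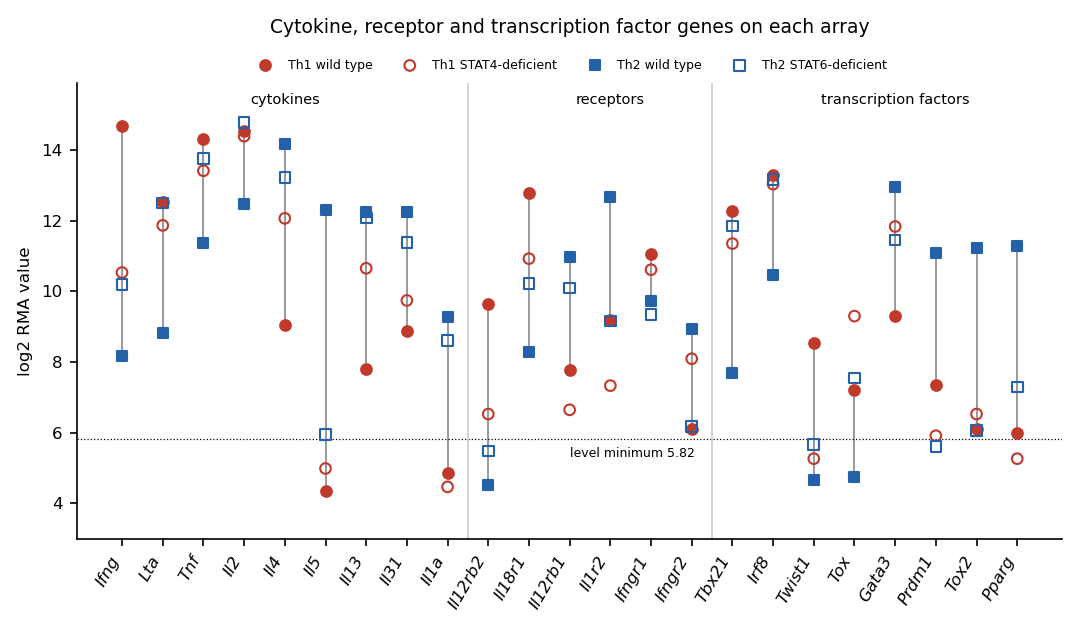
Log2 RMA value of 9 cytokine, 6 receptor and 8 transcription factor genes on each of the 4 arrays. Filled symbols are the wild types, joined by a grey line, and open symbols the STAT-deficient cultures. The dotted line is the level minimum. The wild types are far apart for Ifng, Il5, Il12rb2 and Tox2, while for Il4 and Gata3 the open symbols lie between the filled ones.

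Of 24 genes of the JAK-STAT pathway, 4 were called on each side, a share like the 33.5% of all genes. Over the scalings 2 to 6 were called higher in Th1 and 2 to 7 higher in Th2. Stat4 itself was 11.45 in Th1 and 8.96 in Th2, a 5.61-fold difference. The array labelled STAT4KO had 9.20. Stat6 was 11.17 in Th1 and 10.93 in Th2, and the array labelled STAT6KO had 10.92. The sources used here do not place the Stat4 or Stat6 probe sets relative to the deleted segments, so these levels do not check the genotypes. The kinase genes Pim2 and Pim1, survival factors induced by cytokines, were higher in Th1 (Pim2 at 12.03 against 9.88, Pim1 at 13.09 against 12.04), as was Socs7. The cytokine receptor kinase gene Jak3 was 8.99 in Th1 and 11.22 in Th2, and Tyk2, the kinase bound by the IL-12 and interferon receptors, was 8.47 and 9.71. The feedback inhibitors Socs2 and Socs1 were higher in Th2 as well, by 1.95 and 1.13 on the log2 scale. Cish and Jak2 hardly differed, at 13.17 and 12.88 in Th1 against 13.39 and 13.07 in Th2.

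Among 55 lineage transcription factor genes at the minimum, 14 were called on each side, and the list median was -0.19. The counts were 18 toward Th1 and 11 toward Th2 with loess, and 7 and 19 with hybridization controls. T-bet (Tbx21), the Th1 master regulator, was 12.26 in Th1 and 7.69 in Th2. Both STAT-deficient arrays had levels near that of Th1, 11.36 in STAT4KO and 11.85 in STAT6KO. Irf8, an interferon response factor, was 13.31 and 10.45. Twist1, a repressor counted with the Th1 genes below and not among these 55, was 8.54 in Th1 and 4.66 in Th2, and below the minimum on both STAT-deficient arrays, at 5.27 and 5.66. Tox, Hopx, Rora and Sox4 were also higher in Th1, with differences of 2.46, 1.99, 1.93 and 1.67. Eomes and Runx3, partners of T-bet in interferon gamma control, differed by 1.50 and 1.31.

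The immediate response factors on that list, Myc, Egr2, Atf3 and Bhlhe40, were higher in Th1 by 1.29, 1.0, 1.07 and 1.34, together with Id3 and Tcf12. Egr2 lay at the limit of the call. On the Th2 side, GATA3 (Gata3) was 9.31 in Th1 and 12.95 in Th2, with 11.84 in STAT4KO and 11.45 in STAT6KO. Maf, an activator of Il4, was 7.74 and 10.48. Prdm1, which encodes the repressor Blimp-1, was 7.35 in Th1 and 11.09 in Th2 and near the minimum on both STAT-deficient arrays, at 5.92 and 5.61. Tox2 showed the same pattern, at 6.12 in Th1, 11.22 in Th2, 6.53 in STAT4KO and 6.06 in STAT6KO. It was thus high on the wild type Th2 array alone, in the opposite direction to its relative Tox.

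Further factors higher in Th2 were the nuclear receptor Pparg, 5.99 in Th1 and 11.30 in Th2, and Epas1, which encodes HIF-2 alpha, 6.24 and 13.67. Myb was 9.55 and 11.78, Nfil3 10.42 and 12.68, and Ikzf3 9.53 and 11.96. Nr3c1 (the glucocorticoid receptor), Cebpb, Ahr, Tcf3 and Fli1 had differences from -1.21 to -1.67. Many factors with roles in both lineages were level. Irf4 was 13.54 in Th1 and 13.41 in Th2, Hif1a 13.51 and 13.48, and Irf1 11.64 and 11.70. Bcl6, the factor of follicular helper cells, was 8.37 and 7.72, under the limit. Foxp3, the factor of regulatory T cells, was below the level minimum on both wild type arrays, at 4.34 and 5.13.

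The Th1 genes listed had 28 members at the minimum. Of these, 20 were called higher in Th1 and 5 higher in Th2, with a median of 2.67 (3.04 relative to all genes, 2.94 to 3.08 over the scalings). The widest of those 5 differences, -4.12, was that of the inhibitory receptor gene Havcr2 (TIM-3). Of 26 listed Th2 genes, 18 were called higher in Th2 and 1, Junb, higher in Th1, with a median of -2.34 (-1.97 relative to all genes, -1.97 to -1.91). Both lists were chosen because these genes mark the fates. Their uncalled members were Irf1, Dusp5 and Hlx for Th1, and Ccr4, Dusp6, Il9, Notch1, Gfi1, Stat6 and Ptgdr2 for Th2. Il9, a type 2 cytokine in some cultures, was 6.44 in Th1 and 7.19 in Th2.

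**Figure D3:**
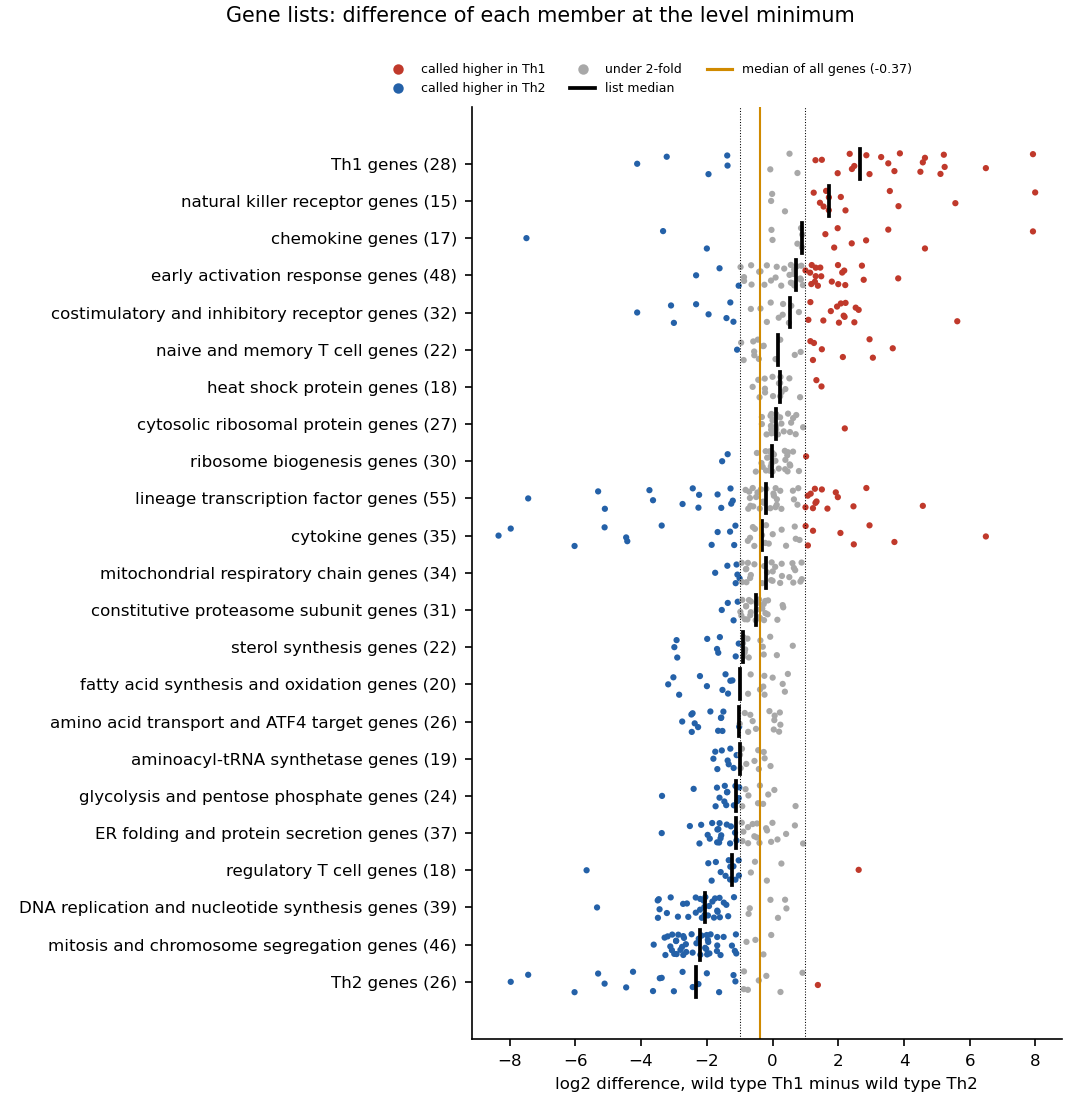
Log2 difference, wild type Th1 minus wild type Th2, of every member at the level minimum in 23 gene lists (number of members in brackets). Points are genes coloured by call, black bars are list medians, dotted lines are 2-fold and the orange line is the median of all genes, -0.37. The lists of replication and mitosis genes lie almost wholly to the left, and natural killer receptor genes to the right.

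Chemokine genes lay mostly on the Th1 side. Of 17 at the minimum, 8 were called higher in Th1 and 3 higher in Th2, and the median was 0.91 (1.27 relative to all genes, 1.25 to 1.29 over the scalings). Xcl1, lymphotactin, was 12.02 in Th1 and 4.10 in Th2, while the STAT-deficient arrays had 9.97 and 9.71. The inflammatory chemokine genes Ccl3, Ccl4 and Ccl5 were 14.31, 14.68 and 12.14 in Th1 against 9.67, 12.69 and 8.62 in Th2. The interferon-inducible CXCR3 ligands were also higher in Th1. Cxcl10 was 10.64 against 7.79, Cxcl11 6.84 against 4.43 and Cxcl9 5.85 against 4.24, the last near the level minimum. Ccl9 differed by 1.88. The 3 chemokine genes on the Th2 side were the neutrophil attractants Cxcl3, 3.03 in Th1 and 10.52 in Th2, and Cxcl2, 8.06 and 11.39, and the CCR8 ligand Ccl1, 9.83 and 11.83.

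Receptors for chemoattractants gave 3 calls toward Th1 and 6 toward Th2 among 18 at the minimum. The counts were 5 and 5 with median, quantile and loess scaling, and 2 and 8 with hybridization controls. Cxcr3, the receptor of the interferon-inducible chemokines, was 12.26 in Th1 and 8.95 in Th2, so the receptor and its ligands were higher in the same culture. Ccr7, the lymph node homing receptor, was 10.80 and 9.54, and Ccrl2 was 8.73 and 7.04. Ccr8, whose ligand gene Ccl1 was also higher in Th2, was 8.12 in Th1 and 10.54 in Th2. Ccr1 was 8.04 and 9.92, and the leukotriene B4 receptor gene Ltb4r1 was 8.04 and 9.87. Ccr3, an eotaxin receptor, was 4.34 and 5.97, just past the level minimum. Ccr4, often used as a Th2 marker, was 7.95 and 8.82 and was not called. Ptgdr2, the prostaglandin D2 receptor CRTH2, was 6.08 and 5.17 and was not called either.

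Receptors first described on natural killer cells were called toward Th1 alone. Of 15 at the minimum, 12 were called higher in Th1 and none in Th2, with a median of 1.71 (2.08 relative to all genes, 1.97 to 2.12). Klrd1, which encodes CD94, was 11.36 in Th1 and 3.36 in Th2. Its partner gene Klrc1 (NKG2A) was 7.74 and 3.91, and Klrk1 (NKG2D) was 9.56 and 4.00. Klrb1f was 7.90 and 4.34. These 4 lectin-like receptor genes were below the level minimum in wild type Th2 cells, so they entered the count through the Th1 array, where they are high. With no level minimum, 13 of the 25 measured natural killer receptor genes were at least 2-fold higher in Th1, none in Th2, and the median was 1.25. Klrc1 and Klrk1 were also below it on the STAT4KO array, at 3.63 and 4.67, where Klrd1 had 9.58.

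The SLAM family receptor genes on the same list were present in both cultures and higher in Th1. Slamf1 was 13.28 in Th1 and 11.57 in Th2, Slamf6 9.81 and 8.10, and Slamf7 11.85 and 9.63. Cd160, Crtam, Hcst, Sh2d1a and Cd96 differed by 2.08, 1.63, 1.55, 1.44 and 1.25. Hcst encodes DAP10, the adaptor of NKG2D, and Sh2d1a the adaptor SAP of the SLAM receptors. Of the list, Klrg1, Fcgr3 and Sh2d2a were at the minimum and not called. The natural killer cell markers Ncr1, Klra1 and Klra8 were below the minimum, as given above.

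The cytotoxic genes had no common direction, with 4 of 16 called higher in Th1 and 5 higher in Th2. The granule protein gene Nkg7 was 12.32 in Th1 and 7.10 in Th2, the cathepsin gene Ctsw 12.25 and 9.29, and granzyme K (Gzmk) 8.51 and 4.00. Fasl, the death ligand, was 11.70 and 9.36. By contrast the death ligand gene Tnfsf10 (TRAIL) was 5.80 in Th1 and 8.88 in Th2. Granzymes A, B and C (Gzma, Gzmb and Gzmc) and Unc13d, a gene of granule release, differed by -1.08, -1.95, -1.27 and -1.30. Perforin (Prf1) was close to the level minimum in both, at 6.16 and 5.42. Srgn, the granule proteoglycan serglycin, was 14.44 and 14.43.

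Genes of the early response to receptor stimulation were higher in Th1 more often than in Th2. Of 48 at the minimum, 19 were called higher in Th1 and 3 higher in Th2. The median was 0.70 (1.07 relative to all genes, 0.88 to 1.11 over the scalings). Over the scalings the calls toward Th1 ranged from 12 to 23 and those toward Th2 from 2 to 8. Btg2, an inhibitor of proliferation, was 12.74 in Th1 and 8.91 in Th2, and Rel, which encodes the NF-kappaB subunit c-Rel, was 12.41 and 9.64. The mRNA decay factor gene Zfp36 was 12.17 and 9.95. The phosphatase gene Dusp1 and the activation antigen gene Cd69 differed by 2.12 and 2.00. Batf, an AP-1 partner, was the other way, at 11.18 in Th1 and 12.79 in Th2. Relb and Nfkb2 were level, at 10.87 and 11.22 in Th1 against 10.92 and 11.13 in Th2.

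Genes of the receptor complex gave fewer calls. Of 32 genes of the T cell receptor complex and its proximal signalling, 5 were called higher in Th1 and 2 higher in Th2 (2 to 10 and 0 to 4 over the scalings). Txk, a Tec family kinase known in Th1 cells, was 8.91 in Th1 and 6.89 in Th2. Cd6, Cd5, Cd3e and Cd4 differed by 1.77, 1.31, 1.14 and 1.05. Ubash3a and Csk, both negative regulators of signalling, differed by -1.48 and -1.05. Sla2 and Cd3g were level.

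Costimulatory and inhibitory receptor genes gave 14 calls toward Th1 and 8 toward Th2 among 32 at the minimum. Cd86 and Cd80, the CD28 ligands better known on antigen-presenting cells, were 9.12 and 6.55 in Th1 and 3.49 and 4.38 in Th2. Nt5e, which encodes CD73, was 8.0 and 5.38, while Entpd1, which encodes CD39, the enzyme before it in extracellular ATP breakdown, was 7.24 in Th1 and 8.43 in Th2. The inhibitory receptor genes Btla and Vsir were 12.92 and 12.13 in Th1 against 10.39 and 9.91 in Th2. Cd7, Fas, Cd160 and Cd40lg differed by 2.49, 2.19, 2.08 and 2.02. Toward Th2 the inhibitory receptor gene Havcr2 (TIM-3) was 7.25 in Th1 and 11.37 in Th2. Cd200r1, Pdcd1lg2, Cd48 and Ctla4 differed by -3.0, -1.95, -1.40 and -1.28. Cd83 and Tnfrsf4 were level.

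Of 22 genes of naive and memory T cells, 8 were called higher in Th1 and 1, Bcl2, higher in Th2. Nsg2 was 9.72 in Th1 and 6.06 in Th2, Actn1 (alpha-actinin) 10.17 and 7.11, and Dapl1 9.07 and 6.12. Foxp1, a quiescence factor, was 11.88 and 9.74. The median was 0.16 (0.53 relative to all genes, 0.51 to 0.67). Klf2 and Bach2 were level, at 9.53 and 10.35 in Th1 against 9.29 and 10.26 in Th2.

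Genes listed for regulatory T cells were on the Th2 side, 13 of 18 called higher in Th2 and 1, Nt5e, higher in Th1. Their median was -1.24 (-0.87 relative to all genes, -0.94 to -0.83). The opioid precursor gene Penk was 8.10 in Th1 and 13.75 in Th2. Socs2, Ebi3, Ikzf4 and Capg differed by -1.95, -1.85, -1.72 and -1.58, and Itgae, Izumo1r (folate receptor 4) and Gpr83 by -1.43, -1.33 and -1.29. The lineage factor gene Foxp3 was below the minimum on both arrays, as given above, and Ikzf2 (Helios) was level at 7.14 and 6.87. Among 10 follicular helper genes, 5 were called higher in Th1 (Btla, Cd40lg, Slamf6, Sostdc1 and Sh2d1a) and Tox2 higher in Th2. Of 10 Th17 genes, Il1r1, Maf, Il17a, Batf and Ahr were called higher in Th2 and Rora higher in Th1.

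Interferon gamma response genes were divided. Of 29 at the minimum, 8 were called higher in Th1 and 3 higher in Th2, with a median of -0.02. Over the scalings the counts were 6 to 8 and 2 to 9, and with centring on hybridization controls the majority was toward Th2, 9 against 6. The members higher in Th1 included 3 guanylate-binding protein genes, the immunity-related GTPase gene Iigp1 and the chemokine genes Cxcl9 and Cxcl10. Gbp2 was 13.42 in Th1 and 9.92 in Th2, Gbp3 11.35 and 8.13, and Iigp1 9.53 and 6.47. Gbp7 differed by 1.92. Cd74, the invariant chain, was 9.94 and 8.81, but H2-Ab1, a class II chain, was 8.09 and 10.73. The immunoproteasome gene Psmb8 was 11.17 and 12.45. The class I genes H2-K1 and H2-D1 were level, at 14.90 and 14.58 in Th1 against 14.87 and 14.55 in Th2.

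Type I interferon-stimulated genes were divided, with 5 of 30 called higher in Th1 and 12 higher in Th2. Their median was -0.46 (-0.09 relative to all genes, -0.14 to -0.05). The IFIT family and IFITM family lay on the Th1 side. Ifitm1 was 12.43 in Th1 and 10.05 in Th2, Ifit3 8.48 and 6.50, Ifit2 8.55 and 6.83, Ifitm3 12.73 and 11.46, and Ifit1 10.27 and 9.10. Mx1, Cmpk2, Usp18 and Xaf1 lay on the Th2 side, with differences of -3.02, -2.58, -2.38 and -2.12. On the STAT-deficient arrays 28 of 31 genes of this list at the minimum were called higher in STAT6KO, against 10.3% of all genes. The list median there was -3.10. Mx1 there was 4.72 in STAT4KO and 12.07 in STAT6KO, and Ifit3 9.19 and 12.98.

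Cell cycle genes were called almost wholly toward Th2. Of 39 genes of DNA replication and nucleotide synthesis, 33 were called higher in Th2 and none higher in Th1. The median was -2.04 (-1.67 relative to all genes, -1.70 to -1.48). Cdc6, which loads the replicative helicase onto origins, was 4.24 in Th1 and 9.58 in Th2, below the level minimum in Th1. Lig1, the replicative DNA ligase, was 8.19 and 11.69, and Gins1, a helicase subunit, was 6.04 and 9.52. E2f8, Tk1 (thymidine kinase) and Rfc5 (a clamp loader subunit) differed by -3.46, -3.10 and -2.88. Pcna, the sliding clamp, was 13.95 and 14.02, and the nucleotide synthesis genes Ppat, Umps and Ctps differed by 0.17, 0.38 and 0.42. The 6 uncalled members thus included genes of purine and pyrimidine synthesis.

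Mitosis and chromosome segregation genes gave 42 calls toward Th2 among 46 at the minimum and none toward Th1. Their median was -2.22 (-1.85 relative to all genes, -1.88 to -1.74). Kif23, a motor of cell division, was 8.06 in Th1 and 11.68 in Th2. Espl1 (separase), Anln (anillin) and Aurkb (Aurora B kinase) were 6.04, 5.57 and 6.59 in Th1 against 9.32, 8.83 and 9.78 in Th2. Kif22, Cenph, Nek2 and Bub1b differed by -3.11, -3.06, -3.05 and -2.99. Another Bub1b probe set differed by 1.41, the other way. Pttg1 (securin) was level, at 11.87 and 11.91, and Cdc25c, Cenpa and Foxm1 were not called.

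Regulators of the cycle were mixed. Of 22, 10 were called higher in Th2 and 1, Btg2, higher in Th1. The cyclin E genes Ccne2 and Ccne1 were 5.20 and 7.69 in Th1 against 8.0 and 9.82 in Th2. The retinoblastoma relatives Rbl1 and Rbl2 differed by -2.56 and -2.44, Cdk6 by -2.43 and the inhibitor gene Cdkn2c by -2.20. Cdkn1b and Mdm2 were level. On the STAT-deficient arrays 20 of 39 replication genes and 8 of 44 mitosis genes at the minimum were called higher in STAT6KO than in STAT4KO, where 10.3% of all genes were. Kif23 there was 8.58 in STAT4KO and 8.06 in STAT6KO, both near the wild type Th1 value.

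Promoter stretches of 4 of these genes, picked because they hold a match, are shown for the elements known to bind E2F factors (TTTCCCGC or TTTGGCGC) and the cell cycle homology region (CHR, TTTGAA) of late cell cycle genes. Both strands were searched, windows and assembly are as above, and capitals mark the matches. The stretches are Cdc6 at chr11:98907901-98908150 (plus strand), Mcm6 (a helicase subunit) at chr1:128359706-128359955 (minus strand), Espl1 at chr15:102296043-102296292 (plus strand) and Kif22 at chr7:127042421-127042670 (minus strand).
Cdc6: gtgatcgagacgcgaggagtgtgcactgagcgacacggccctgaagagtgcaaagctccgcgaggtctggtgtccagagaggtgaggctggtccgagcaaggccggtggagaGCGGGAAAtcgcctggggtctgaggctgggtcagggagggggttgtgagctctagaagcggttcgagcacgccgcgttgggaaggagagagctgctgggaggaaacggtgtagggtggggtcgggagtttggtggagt
Mcm6: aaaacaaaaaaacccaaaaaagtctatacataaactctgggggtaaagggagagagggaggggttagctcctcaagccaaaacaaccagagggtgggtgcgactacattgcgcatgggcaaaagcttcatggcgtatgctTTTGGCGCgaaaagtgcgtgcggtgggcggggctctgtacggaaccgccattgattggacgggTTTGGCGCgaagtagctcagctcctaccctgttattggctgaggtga
Espl1: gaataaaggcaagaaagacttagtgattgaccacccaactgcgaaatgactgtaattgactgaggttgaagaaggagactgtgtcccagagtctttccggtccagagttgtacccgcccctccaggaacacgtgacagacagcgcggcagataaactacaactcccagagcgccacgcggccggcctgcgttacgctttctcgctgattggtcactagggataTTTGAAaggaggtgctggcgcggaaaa
Kif22: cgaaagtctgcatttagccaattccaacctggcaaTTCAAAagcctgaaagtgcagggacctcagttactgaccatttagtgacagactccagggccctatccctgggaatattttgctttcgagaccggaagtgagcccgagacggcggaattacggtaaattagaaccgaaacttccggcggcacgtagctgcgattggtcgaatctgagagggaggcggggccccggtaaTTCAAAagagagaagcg
Cdc6 holds 1 E2F element, at -138 from the start site, and Mcm6 holds 2, at -110 and -47. Espl1 holds a CHR at -27 and Kif22 holds 2, at -215 and -17. The stretches of Lig1, Rrm2, Tyms, Kif23, Anln, Cenph, Nek2 and Bub1b held neither element. E2F elements were in 11 of 42 promoters of the replication list (26.2%), 2 of 41 of the mitosis list (4.88%) and 1.56% of all promoters. CHR letters were in 31 of 41 promoters of the mitosis list (75.6%), 6 of 42 of the replication list (14.3%) and 17.9% of all promoters. Among called genes the CHR share was 13.8% for those higher in Th1 and 13.7% for those higher in Th2, and the E2F share was 1.72% and 3.64%. Among all genes at the level minimum, from which calls are drawn, the CHR and E2F shares were 11.9% and 2.81%.

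Metabolic genes called in the wild type pair were nearly all on the Th2 side. Over all genes, 25.4% were called higher in Th2 and 8.14% higher in Th1. Of 24 genes of glycolysis and the pentose phosphate route, 15 were called higher in Th2 and none higher in Th1, with a median of -1.10 (-0.73 relative to all genes, -0.84 to -0.69). Tpi1, triose phosphate isomerase, was 11.24 in Th1 and 13.64 in Th2, and Pfkl, liver phosphofructokinase, was 8.69 and 10.42. The glucose transporter gene Slc2a3, Aldoa, Pgd and Tkt differed by -1.69, -1.61, -1.47 and -1.45. Hk2, hexokinase 2, was level at 12.08 and 12.02, and Pgam1 and Pfkfb4 were not called. Of 20 genes listed as HIF targets, 8 were called, each of them higher in Th2. Selenbp1 was 5.41 and 9.58, Ero1a 10.04 and 12.94, and P4ha2 6.80 and 9.14. Vegfa, the vascular growth factor, was 7.68 and 7.99.

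Lipid synthesis showed the same side. Of 22 sterol synthesis genes, 9 were called higher in Th2 and none in Th1, with a median of -0.89 (-0.52 relative to all genes, -0.54 to -0.42). Lss, lanosterol synthase, was 7.15 in Th1 and 10.13 in Th2. Hsd17b7, Dhcr7 and Fdps differed by -2.92, -2.90 and -1.99. Hmgcs1 and Sqle, early and middle enzymes of the pathway, were level at 11.02 and 10.60 in Th1 against 11.09 and 10.90 in Th2. Of 20 fatty acid genes, 10 were called higher in Th2. The desaturase genes Scd2 and Scd1 were 8.79 and 5.74 in Th1 against 11.96 and 8.76 in Th2. The mitochondrial import genes Cpt2 and Cpt1a, of fatty acid oxidation, differed by -2.84 and -2.21, so genes of synthesis and of oxidation were on the same side. Fasn, fatty acid synthase, was 10.78 on both arrays.

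Of 26 genes of the tricarboxylic acid cycle, 10 (38.5%) were called higher in Th2 and none in Th1. Their median was -0.86 (-0.49 relative to all genes, -0.56 to -0.45). Pcx, Idh1 and Idh2 were 6.44, 6.08 and 6.72 in Th1 against 8.28, 7.89 and 8.46 in Th2. The respiratory chain had 6 of 34 genes (17.6%) called higher in Th2, below the 25.4% of all genes, and none higher in Th1. Its median was -0.21 (0.16 relative to all genes, -0.14 to 0.20). Over the scalings 0 to 3 of its genes were called higher in Th1 and 1 to 14 higher in Th2. Over the scalings the calls toward Th2 ranged from 5 to 19 for the tricarboxylic acid cycle, 6 to 14 for HIF targets, 7 to 16 for sterol synthesis and 5 to 13 for aminoacyl-tRNA synthetases. Ndufv1 of complex I was 9.61 and 11.36, while Cox5a, Sdhc, Cox6a1 and Atp5j were level.

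Amino acid supply and protein production also had calls toward Th2. The serine synthesis enzymes Phgdh, Psat1 and Psph were 10.19, 9.77 and 7.73 in Th1 against 12.65, 12.52 and 10.19 in Th2, so each step of the route was at least 4-fold higher in Th2. Vldlr, Trib3, Asns (asparagine synthetase) and Atf5 differed by -2.43, -2.37, -2.27 and -1.89. Of 26 genes of amino acid transport and ATF4 targets, 13 were called higher in Th2 and none in Th1. The transporter genes Slc3a2, Slc1a5, Slc38a1 and Slc38a2 were level. Of 19 aminoacyl-tRNA synthetase genes, 9 were called higher in Th2, with a median of -0.99, led by Mars1, Aars and Vars at -1.80, -1.74 and -1.68.

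Of 37 genes of folding and secretion in the endoplasmic reticulum, 19 were called higher in Th2 and none in Th1. The median was -1.10 (-0.73 relative to all genes, -0.76 to -0.67). Creld2 was 7.51 in Th1 and 10.88 in Th2, the disulfide isomerase gene Pdia4 was 7.46 and 9.98, and Sdf2l1 was 8.42 and 10.64. Hsp90b1 (GRP94), Sec24d and Sel1l differed by -1.97, -1.91 and -1.84. Xbp1, the factor of the unfolded protein response, was 12.29 and 13.90; it ranks outside the named-gene rule and was picked after its values were seen. Sec61a1 and Sec61b, subunits of the translocon, were level, at 12.79 and 12.36 in Th1 against 12.79 and 12.40 in Th2.

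Of 27 cytosolic ribosomal protein genes, 1, Rpl37, was called (10.98 in Th1 and 8.78 in Th2). Their median was 0.11, which is 0.48 relative to all genes and -0.03 to 0.52 over the scalings. Ribosome biogenesis genes had a median of 0.00, with 1 of 30 called higher in Th1 and 2 higher in Th2. Heat shock protein genes had 2 of 18 called, Hspa4l and Hspa1b, both higher in Th1 by 1.49 and 1.34. Of 31 constitutive proteasome genes, 4 (12.9%) were called higher in Th2, against 25.4% of all genes, and 1 to 15 over the scalings. Their median was -0.51. Genes often used as references were not all stable. Of 15, 4 were called higher in Th2, a share near that of all genes: Gusb (7.57 and 9.89), Tubb5, Pgk1 and Sdha, the last 3 by -1.60, -1.41 and -1.37. Tbp and Eef1a1 differed by -0.12 and -0.11.

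Among chromatin genes, Kdm6b, the demethylase of the repressive mark H3K27me3, was 13.24 in Th1 and 11.09 in Th2. Ezh2 and Suz12, which write that mark, were 10.96 and 10.09 in Th1 against 12.37 and 11.39 in Th2, and Mtf2 differed by -1.16. In all, 2 of 15 Polycomb and H3K27 genes were called higher in Th1 and 4 higher in Th2 (1 to 3 and 1 to 6 over the scalings). Of 17 genes of H3K4 methylation, 5 were called higher in Th2, near the 25.4% of all genes, and 1 to 7 were over the scalings, with 0 to 1 toward Th1. Ash2l differed by -1.76. Dnmt1, the maintenance DNA methyltransferase, was 8.60 and 11.37, and its partner Uhrf1 was 8.19 and 10.91. The de novo enzyme gene Dnmt3b and Tet2 were level.

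Cell death and stress genes were mixed. Of 24 apoptosis genes, 6 were called higher in Th1 and 4 higher in Th2. Bcl2l11 (BIM), a killer of activated T cells, was 12.61 in Th1 and 9.98 in Th2, while Bik, Casp8, Bid and Bcl2 differed by -1.96, -1.53, -1.49 and -1.08. Casp4 and Pmaip1 differed by 1.54 and 1.38. Metallothioneins Mt1 and Mt2 were 12.55 and 12.81 in Th1 against 10.60 and 9.87 in Th2, with the zinc exporter gene Slc30a1 higher by 1.32. Nfe2l2, which encodes the oxidative stress factor NRF2, was 11.27 and 8.53, whereas its partner Keap1 and its target Gclm differed by -1.90 and -1.93. Prdx4, a peroxiredoxin of the secretory route, was 10.01 and 12.30.

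Genes of adhesion and of surface sugars had calls on both sides. Icam1 was 12.65 in Th1 and 10.09 in Th2, and Itga6 differed by 1.38. The integrin genes Itgb3 and Itgb7 were 9.49 and 11.15 in Th1 against 12.14 and 12.37 in Th2. The sialyltransferase gene St3gal1 was 7.61 and 11.64, while Gcnt1, the branching enzyme of selectin ligands, was 5.85 and 4.00, near the level minimum. Fut7, the fucosyltransferase of selectin ligands, was level at 6.68 and 6.69. In lipid mediator synthesis, Pla2g12a, a secreted phospholipase, was 9.47 and 12.09, the prostacyclin receptor gene Ptgir was 6.18 and 8.35, and Ptger4, a prostaglandin E2 receptor, was 13.24 and 11.65. Among lysosomal genes, Ctsl was 11.03 and 8.06 and Ctsh 4.73 and 7.52. Of 23 Notch and TGF-beta genes, Tgif1 and Notch2 were called higher in Th1, by 2.47 and 1.20, and Ltbp3 higher in Th2.

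Genes outside the lists added to the contrast. On the Th1 side, Ncf1, a subunit of the NADPH oxidase, was 9.06 in Th1 and 4.75 in Th2. Sntb1 (a syntrophin), Lrig1 (a membrane inhibitor of growth factor receptors) and Spin4 were 8.56, 10.09 and 9.72 in Th1 against 4.05, 6.14 and 5.72 in Th2. Abcb1a, the multidrug efflux pump, was 7.89 and 4.48. Xdh, xanthine dehydrogenase, Ubd, a ubiquitin-like protein, and the tetraspanin gene Cd9 differed by 3.48, 3.44 and 3.28. Lrig1 was 10.26 in STAT4KO and 10.13 in STAT6KO, and Cd9 was 11.73 and 11.74, so for both the wild type Th2 array was the low one of 4.

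On the Th2 side, Rps6ka5, the kinase MSK1, was 5.24 in Th1 and 10.67 in Th2, and Emilin2, a matrix protein, was 6.22 and 11.68. Secreted and hormone-related products were among the genes with differences of at least 16-fold. Inhba, the activin A subunit, was 8.75 and 13.34, Nts (neurotensin) 7.37 and 11.97, Hc (complement C5) 5.31 and 10.27 and Tg (thyroglobulin) 6.22 and 11.06. Akr1c18, which inactivates progesterone, was 6.39 and 11.64. Cth, which makes cysteine from cystathionine, was 5.0 and 9.97, and Mboat1, a phospholipid acyltransferase, was 6.95 and 12.16. Emilin2, Mboat1 and Rps6ka5 were 5.08, 7.99 and 5.12 in STAT6KO, nearer to Th1 than to Th2.

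Gene families were also defined by their symbols. Of 8 annexin genes at the minimum, 6 were called higher in Th2 (4 to 7 over the scalings), led by Anxa3 at -2.88, and none higher in Th1. Of 10 minichromosome maintenance (MCM) genes, 8 were called higher in Th2. Of 27 kinesin genes, 15 were called higher in Th2 and 2, Kif1a and Kifc2, higher in Th1. Of 6 guanylate-binding protein genes, 4 were called higher in Th1. Of 76 mitochondrial ribosomal protein genes, 19 were called higher in Th2 and 1 higher in Th1, with 5 to 39 and 0 to 3 over the scalings. Of 222 solute carrier genes, 12 were called higher in Th1 and 57 higher in Th2 (2 to 20 and 31 to 80 over the scalings). For both of these families the share called higher in Th2 was near the 25.4% of all genes. The TNF receptor family was split, with Tnfrsf23 and Tnfrsf25 higher in Th1 by 2.84 and 2.49 and Tnfrsf8 (CD30) and Tnfrsf13b differing by -2.82 and -1.82. The ligand gene Tnfsf13b (BAFF) was 6.18 in Th1 and 9.83 in Th2, while Tnfsf4 (OX40 ligand) was 9.34 and 7.38.

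**Figure D4:**
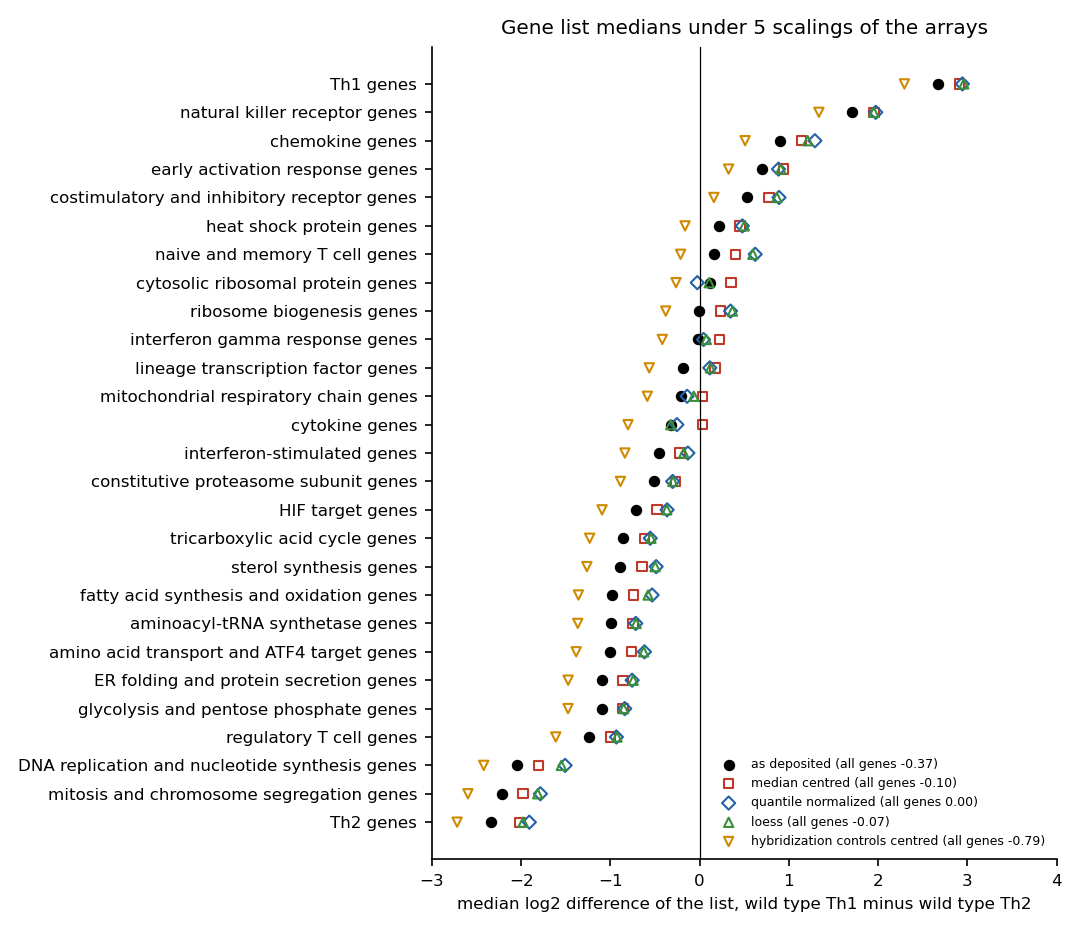
Median log2 difference, wild type Th1 minus wild type Th2, of 27 gene lists under 5 scalings of the arrays. The median of all genes under each scaling is given in the legend, and the vertical line marks no difference. The Th1 and natural killer receptor lists stay on the right and the replication, mitosis and Th2 lists on the left under the 5 scalings, while lists near the middle change sign.

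A Th1 against Th2 contrast was also available from the arrays labelled STAT4KO (Th1) and STAT6KO (Th2), which share no array with the wild type pair. In it the culture changes together with the missing STAT and the mouse line, so their parts in a difference cannot be told apart. The control probe set gaps given above also differed between these arrays, and their part was not tested. In that pair 2875 of 12582 genes at the minimum were called (22.9%), 1585 higher in Th1 (12.6%) and 1290 higher in Th2 (10.3%). The share higher in Th1 was 55.1% as deposited, and 30.7%, 52.7%, 42.8% and 68.4% under the median, quantile, loess and hybridization control scalings. Of the 986 genes higher in wild type Th1, 284 were called the same way, which is 28.8% of the wild type calls and 17.9% of the calls in the STAT-deficient pair. Another 80 were called the opposite way. Of the 3072 genes higher in wild type Th2, 611 were called the same way (19.9% of the wild type calls and 47.4% of those in the STAT-deficient pair) and 83 the opposite way. Among genes at least 4-fold apart in the wild types, the shares called the same way were 28.4% for Th1 and 33.7% for Th2.

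Genes with large differences in both pairs included Klrb1f, App and Crim1 on the Th1 side. App, the amyloid precursor, was 8.41 in Th1 and 5.45 in Th2, and 7.65 in STAT4KO and 4.90 in STAT6KO. Klrb1f was 8.19 and 4.44 on the STAT-deficient arrays, and Cd7 was 9.76 and 7.51. On the Th2 side, Il1a was 4.47 in STAT4KO and 8.62 in STAT6KO, Inhba 7.59 and 11.94, Penk 8.76 and 12.43, and Cth 5.23 and 9.33. For these genes the lower and the higher array were the same cultures in both pairs. Olr1, the oxidised lipoprotein receptor, was 5.80 in Th1 and 9.86 in Th2, and 3.38 and 8.37 on the STAT-deficient arrays.

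**Figure D5:**
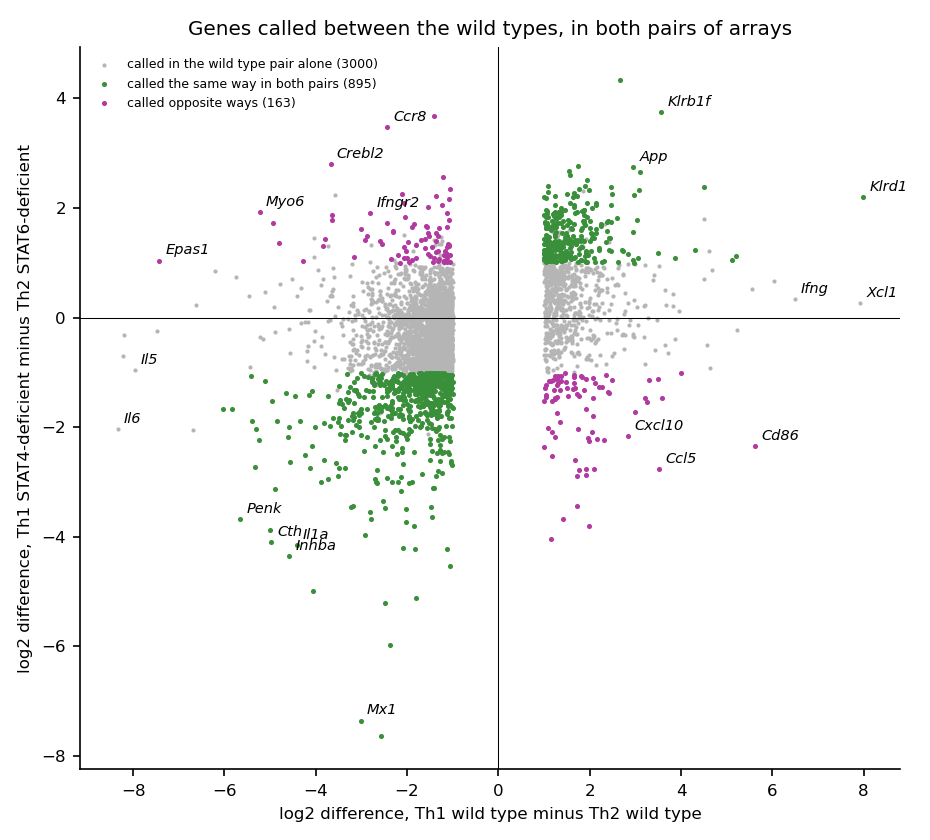
Log2 difference of each gene called in the wild type pair (x axis, Th1 wild type minus Th2 wild type) against its difference in the STAT-deficient pair (y axis, Th1 STAT4-deficient minus Th2 STAT6-deficient). Green points are the 895 genes called the same way in both pairs, purple points the 163 called opposite ways and grey points the rest. Ifng and Xcl1 lie near 0 on the y axis, while Penk, Inhba and Il1a are far below it.

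Several of the largest wild type differences were under 2-fold in the STAT-deficient pair. Ifng, Xcl1 and Il5 differed by 0.33, 0.26 and -0.96 in the STAT-deficient pair. Tbx21 differed by -0.50 and Gata3 by 0.39 there. Plac8, which was 14.01 in Th1 and 8.78 in Th2, was 8.96 in STAT4KO and 9.18 in STAT6KO. Rnf152, at 3.25 in Th1 and 11.45 in Th2, was 3.84 and 4.15 there. Epas1 was 7.18 and 6.14, a difference of 1.04 that passed the limit in the direction opposite to the wild types. Il5, Plac8, Epas1 and Rnf152 were thus high on a single array of the 4, and Tbx21 and Xcl1 were low on a single one.

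Measurements within a gene did not always run the same way. Of 1711 called genes with several probe sets at the minimum, 1360 (79.5%) had them all on 1 side, and 106 genes had probe sets called in opposite directions. Peli1, an E3 ligase of T cell activation, had probe sets from -3.39 to 2.50. Malat1, a nuclear noncoding RNA, had a range from -1.82 to 2.47, Epsti1 from -2.25 to 2.29 and Cip2a from -1.85 to 2.36. For such genes the value of the brightest probe set was 1 of several that disagreed. Of the genes called higher in Th1, 493 reached the minimum in Th1 alone and 493 in both wild types. Of those called higher in Th2, 553 reached it in Th2 alone and 2519 in both. Most genes higher in Th2 were therefore also measured above the minimum in Th1.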

How the data were processed

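The deposited table holds 1 log2 expression value per probe set and array, made by the authors with RMA per the submitters' processing notes, which name no version. The genome build is not given in the sources used here. A platform annotation, updated through a RefSeq gene table (GRCm38.p6), assigned 1 gene to 34945 of 45037 probe sets, which were used. It assigned several genes to 932 and no gene to 9160.

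Differences were taken directly, Th1 minus Th2, with Python 3.11.15, pandas 2.3.3 and statsmodels 0.14.6 (loess). Members and lists were chosen with earlier results of these data known. Genes named were the 40 largest one-sided calls each way, the cytokine, receptor, natural killer, cytotoxic and transcription factor lists, up to 8 called genes each way and 4 level genes of other lists, the 10 largest in each class shared with or opposite to the STAT-deficient pair, and 10 genes whose probe sets disagreed. With 1 array a group there is no error, and the number of arrays limits the precision. Scalings, level minimum, probe set choice and threshold were varied.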

Additional observations from a re-analysis of the deposited data

Results flagged for a closer look

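Of 163 genes called opposite ways in the wild type pair and the STAT-deficient pair, 6 in each direction are given, those whose smaller difference of the 2 pairs was largest. Of genes higher in wild type Th1, 8.11% were called higher in Th2 in the STAT-deficient pair, against 10.3% of all genes. Of genes higher in wild type Th2, 2.70% were called higher in Th1 there, against 12.6%. Opposite calls were thus no more frequent among these genes than over all genes. The difference between the pairs was not tested, since each group has 1 array. In the STAT-deficient pair the culture also changes together with the missing STAT and the mouse line. The values are log2 differences, Th1 minus Th2.

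Higher in wild type Th1 were the chemokine genes Ccl5, at 3.52 against -2.77 in the STAT-deficient pair, and Cxcl10, at 2.85 against -2.17. The CD28 ligand genes Cd86 and Cd80 were 5.62 and 2.17 in the wild types against -2.35 and -2.21. Trim12a was 2.31 against -2.23 and the keratin gene Krt16 was 2.08 against -2.76. On the STAT-deficient arrays 28 of 31 measured type I interferon-stimulated genes had a value at least 2-fold higher in STAT6KO, against 10.3% of all genes.

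Higher in wild type Th2 were Ccr8, at -2.43 against 3.48, and the interferon gamma receptor chain gene Ifngr2, at -2.81 against 1.91. Crebl2 was -3.67 against 2.80 and the myosin gene Myo6 was -5.23 against 1.93. Mctp1 was -2.10 against 2.25, and the phosphatase gene Dusp10 was -2.06 against 2.09, with its other probe set at 0.32 in the wild types.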

How the results depend on the processing

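The number of called genes was 4058 and ranged from 2938 to 5263 under 9 of 11 alternatives. It was 930 with a 4-fold threshold, which is stricter, and 7088 when every probe set was counted in place of 1 per gene. The share of calls higher in Th1, 24.3%, was 40.1% with median centring, 44.9% with quantile normalization, 39.3% with loess and 8.9% with centring on hybridization controls, and its cause was not tested. Calls in the STAT-deficient pair and calls shared by the pairs stayed within 1.5 times of 2875 and 895. Of 476 differences of 119 named genes under other scalings, 462 kept their side of the limit, 7 passed below it, 7 passed above it and 0 reversed. The 119 are only some of the genes named here, and the naming rules largely favoured large differences, which lie far from the limit. List counts did move, as for the early activation response genes, whose calls toward Th1 ranged from 12 to 23. Of 519 recomputed list medians, 9 were classed as moved and 0 of the called ones as reversed. Medians near 0 did change sign outside these classes. That of the lineage transcription factor genes went from -0.19 to 0.17 with median centring. That of the cytosolic ribosomal protein genes went from 0.11 to -0.26 with centring on hybridization controls. No paired analysis was possible because each group has 1 array and no replicate numbers, so no replicate could be left out either.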
